A study of Homo sapiens with 4 samples.

Results

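The genes of sterol and fatty acid synthesis that are known targets of the sterol regulatory element-binding proteins (SREBPs), together with the regulators of these proteins, were compared between HCT116 cells grown as multicellular spheroids (MCS) and HCT116 cells grown as monolayers. HCT116 is a human colon carcinoma line. There were 33 genes of interest among 19775 genes with a usable probe set: 17 enzymes of sterol synthesis, 6 regulators and sterol transfer proteins, and 10 enzymes of fatty acid synthesis. The class of 6 is called regulators below, although STARD4 in it is a sterol carrier. The genes were taken by name from the pathway, and each was read through array probe sets that carry its symbol alone. The spheroid group was 2 untreated cultures aggregated on coated plates that prevent attachment, and the monolayer group was 2 untreated cultures of the same line attached to plastic. Both groups were the same line with no drug, and the methods describe the cultures as independent. The study used the comparison to characterise the quiescent and hypoxic cells that a spheroid contains. RNA came from whole cultures, so the values average over rim and core, and fewer cells of a kind cannot be told apart from less RNA per cell.

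Cholesterol is built from acetyl-CoA through the mevalonate pathway, and the same acetyl-CoA feeds the synthesis of fatty acids. SREBP-2, encoded by SREBF2, mainly drives the sterol genes, and SREBP-1, encoded by SREBF1, mainly the fatty acid genes. Both precursors sit in the membrane of the endoplasmic reticulum, bound to the escort protein SCAP. When sterols are plentiful, INSIG proteins hold SCAP in place, and when sterols are scarce, SCAP carries the precursors to the Golgi, where proteases release the active transcription factors. Cleavage is not seen by an expression array, so all values below are transcript levels.

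For its gene set analysis the study used a level of 300 units together with present calls, which were not applied here. Of the 33 genes, 30 had a probe set with 1 symbol and 28 had a mean signal above 300 units over the 4 arrays. These 28 are called tested. No single-symbol probe set was at hand for FDFT1 (squalene synthase), CYP51A1 (lanosterol demethylase) or FADS1 (a fatty acid desaturase), and they were not analysed here. MVD, the last enzyme before isopentenyl diphosphate, was dim, with signals of 216 and 302 in spheroids and 164 and 164 in monolayers. The desaturase FADS2 was dim as well, with signals of 165 and 118 in spheroids and 155 and 162 in monolayers. TM7SF2 and SREBF2 averaged under 300 units in monolayers and passed through their spheroid signals, so a count over tested genes favours such increases.

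The genes of interest that rose in spheroids were 4 regulators (STARD4 among them), 7 sterol enzymes and 2 fatty acid enzymes. Those that build the fatty acid chain, ACACA, FASN, ELOVL5 and ELOVL6, were not called. HACD2, a dehydratase outside the genes of interest, was called lower. Of the 28 tested genes, 13 rose and 2 fell in spheroids, and 13 were not called (limma, adjusted p under 0.05 over all 8721 genes tested). Among all genes tested, 39.6% were called, 19.0% as higher and 20.6% as lower. Both spheroid arrays lay above both monolayer arrays in 18 of the 28, against 33.4% of all genes, and below them in 3 of the 28, against 36.6% of all genes. The groups overlapped in the other 7. The median log2 difference, spheroid minus monolayer, was 0.51 over the 28 genes and -0.030 over all genes tested. Of the 28 differences, 20 were above 0 and 8 below it. A log2 difference of at least 1 was reached by 8 genes, and none reached -1.

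These directions are relative to the average of each array, because the deposited signals had been scaled to a common trimmed mean of 500.1. The Bacillus control transcripts on the arrays had geometric mean signals of 1871 and 1255 in spheroids and 746 and 897 in monolayers. The spheroid over monolayer ratio of these geometric means was 1.87. When arrays were scaled to these controls instead, the median of all genes was -0.91, and 157 genes were called higher and 3656 lower in spheroids, against 1656 and 1799 with the deposited scaling. Under that scaling INSIG2 was the 1 tested pathway gene still called higher, at 1.12 (limma, adjusted p = 0.0340), and EBP, ACLY, FDPS, SCAP and ELOVL5 were called lower. The controls themselves differed by 1871 against 1255 between the 2 spheroid cultures. Whether the controls track mRNA per cell was not tested.

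**Figure D1:**
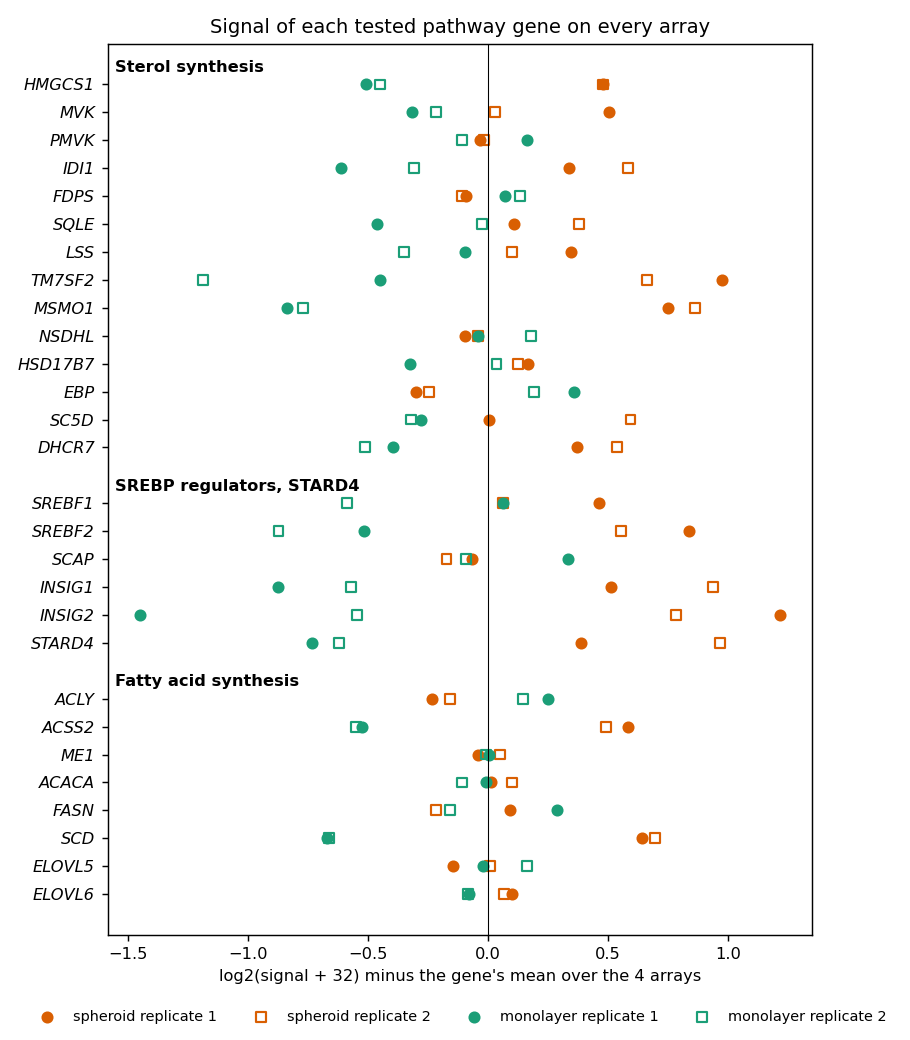
Horizontal axis: log2(signal + 32) of a gene on each of the 4 arrays minus the mean of that gene over the arrays. Rows are the 28 tested genes in the classes sterol enzymes, regulators and fatty acid enzymes, and each point is 1 array (orange for spheroids, green for monolayers). The spheroid points lie fully to the right of the monolayer points for 18 genes and fully to the left for 3. Values are relative to the array average, and scaling to the Bacillus controls moves the spheroid points left.

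The regulators had the highest class median, although SREBF1 and SCAP were not called and the sterol enzymes TM7SF2 and MSMO1 differed by more than any regulator except INSIG2. INSIG2, which retains SCAP in the endoplasmic reticulum, had signals of 3555 and 2622 in spheroids, against 533 and 1025 in monolayers. The groups were well apart although the monolayer cultures were unequal, and the log2 difference was 2.00 ± 0.26 (standard error, n = 2 per group, adjusted p = 1.14e-04). INSIG1, the form whose gene is itself a classic SREBP target, had signals of 3810 and 5131 in spheroids, against 1440 and 1785 in monolayers, a difference of 1.45 ± 0.18 (limma, adjusted p = 8.88e-05). SREBF2 had signals of 869 and 709 in spheroids, against 321 and 244 in monolayers. Its difference was 1.39 ± 0.24 (limma, adjusted p = 7.99e-04), a 2.79-fold higher mean signal. STARD4, a carrier that moves cholesterol between membranes, had signals of 2394 and 3589 in spheroids, against 1085 and 1175 in monolayers, a difference of 1.35 ± 0.20 (limma, adjusted p = 2.64e-04). Every spheroid value of these 4 genes was above every monolayer value, a separation that 33.4% of all genes tested showed. In the other 2 regulators, SREBF1 and SCAP, the groups overlapped.

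The partner of SREBF2 and the escort protein did not pass the test. SREBF1 had signals of 1222 and 918 in spheroids and 919 and 573 in monolayers, so that the second spheroid culture and the first monolayer culture were almost equal. The difference was 0.53 ± 0.24 (limma, adjusted p = 0.107), and its 95% confidence interval ran from -0.0056 to 1.06. It moved with single cultures: without the first monolayer culture the difference was 0.85 and passed the threshold (adjusted p = 0.0131), without the second it was 0.20 (adjusted p = 0.637), and without the first spheroid culture it was 0.33 (adjusted p = 0.427). SCAP had signals of 790 and 732 in spheroids and 1052 and 777 in monolayers, a difference of -0.24 ± 0.21 with an interval of -0.70 to 0.22 (adjusted p = 0.398). Over the 6 regulators, with the carrier STARD4 counted, 4 were called higher (66.7%, against 19.0% of all genes) and 0 lower (against 20.6%). SREBF2, among the 4, passed the signal filter only through its spheroid signals, which favours such an increase. The median of the 6 was 1.37, or 0.50 with scaling to the Bacillus controls. The gap between SREBF2 and SREBF1 was not tested.

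Promoter windows are shown for SREBF2 and INSIG1, as regulators that rose and are known SREBP targets, for MSMO1 and SCD, the sterol and the fatty acid enzyme with the smallest p, and for EBP, a sterol enzyme that fell. Each window runs from 250 bases before to 50 bases after the start of the gene, on the plus strand of the GRCh38.p14 assembly, and comes from RefSeq. Capitals mark the sterol regulatory element TCACNCCAC, where SREBPs bind, the CCAAT box, which nuclear factor Y binds and which reads ATTGG on the other strand, and the E-box CACGTG. The windows lie at chr22:41832855-41833154 (SREBF2), chr7:155297628-155297927 (INSIG1), chr4:165327419-165327718 (MSMO1), chr10:100346983-100347282 (SCD) and chrX:48521558-48521857 (EBP).
SREBF2: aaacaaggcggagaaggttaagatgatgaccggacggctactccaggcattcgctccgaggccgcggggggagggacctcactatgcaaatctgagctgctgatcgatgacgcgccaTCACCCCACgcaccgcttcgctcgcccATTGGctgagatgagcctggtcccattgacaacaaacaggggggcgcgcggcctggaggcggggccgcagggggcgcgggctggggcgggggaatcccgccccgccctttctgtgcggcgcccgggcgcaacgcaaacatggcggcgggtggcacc
INSIG1: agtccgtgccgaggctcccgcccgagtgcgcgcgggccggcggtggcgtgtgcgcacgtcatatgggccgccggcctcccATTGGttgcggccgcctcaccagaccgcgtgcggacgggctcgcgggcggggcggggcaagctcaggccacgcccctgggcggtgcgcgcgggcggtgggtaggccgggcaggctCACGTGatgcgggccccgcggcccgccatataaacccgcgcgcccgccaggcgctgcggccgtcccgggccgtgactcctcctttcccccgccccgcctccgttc
MSMO1: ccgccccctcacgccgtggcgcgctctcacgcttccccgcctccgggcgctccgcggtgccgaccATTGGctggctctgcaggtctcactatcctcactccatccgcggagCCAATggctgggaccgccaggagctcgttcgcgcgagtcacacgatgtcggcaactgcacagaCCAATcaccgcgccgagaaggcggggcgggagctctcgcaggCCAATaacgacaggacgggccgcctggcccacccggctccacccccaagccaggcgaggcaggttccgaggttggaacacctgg
SCD: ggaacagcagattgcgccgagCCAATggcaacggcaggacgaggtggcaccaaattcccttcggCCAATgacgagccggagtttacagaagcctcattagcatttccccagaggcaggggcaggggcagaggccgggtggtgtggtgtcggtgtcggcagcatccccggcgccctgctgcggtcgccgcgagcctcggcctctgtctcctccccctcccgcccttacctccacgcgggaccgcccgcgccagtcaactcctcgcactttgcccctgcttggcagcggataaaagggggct
EBP: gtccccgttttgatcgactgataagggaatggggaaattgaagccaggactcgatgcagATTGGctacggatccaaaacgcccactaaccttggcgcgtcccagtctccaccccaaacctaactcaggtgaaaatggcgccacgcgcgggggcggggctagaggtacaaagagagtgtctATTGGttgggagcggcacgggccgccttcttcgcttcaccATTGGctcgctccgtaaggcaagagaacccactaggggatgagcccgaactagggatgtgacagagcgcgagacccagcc

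In the SREBF2 window the sterol regulatory element began at position -133 and a CCAAT box on the opposite strand at -106, counted from the start of the gene. The INSIG1 window held a CCAAT box at -170 and a CACGTG at -55. MSMO1 had 4 CCAAT boxes, at -185, -139, -76 and -34. EBP had 3 of them, at -191, -70 and -30, although its transcript was lower in spheroids, and SCD had 2, at -229 and -186. EBP thus lay between SCD and MSMO1 in its number of CCAAT boxes. These genes were picked by their values, so they cannot show whether that number goes with direction.

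The same letters were counted, on both strands, in the windows of all genes of interest that the table holds, which were 30 of 33. FASN, SQLE and FDFT1 were not matched. A CCAAT box was present for 22 of the 30 genes (73.3%), against 39.7% of all genes in the table and 34.6% of its 35116 windows. By class it was present for 13 of 15 sterol enzymes, 3 of 6 regulators and 6 of 9 fatty acid enzymes. Of the genes called higher in spheroids, 12 were in the table and 11 of these had such a box, against 11 of the 18 others. These others include genes that were not tested, such as MVD and FADS2. By window the counts were closer, at 13 of 19 (68.4%) against 13 of 22 (59.1%). Whether the box goes with the direction was not tested. GGGCGG, the core of the site bound by Sp1, was present for 28 of the 30 (93.3%), against 48.3% of all genes and 44.95% of windows. CACGTG was found for 5 of the 30 (16.7%), against 8.78% of all genes and 7.26% of windows, and ACGTG, which every CACGTG contains, for 11 of the 30 (36.7%), against 24.9% of all genes and 21.4% of windows. The strict sterol element TCACNCCAC was found for SREBF2 alone (3.33%), against 1.39% of all genes and 1.13% of windows. The comparison covers all 27305 genes of the table, whether or not they are expressed in these cells. Shares over expressed genes alone were not computed. A match describes letters in a window and is not a measured binding site. The lack of one says only that these letters are not in these bases.

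Sterol enzymes rose at several separate steps of the pathway, and at others did not. At its entry, HMGCS1, which makes HMG-CoA from acetyl-CoA units, had signals of 1359 and 1357 in spheroids, against 670 and 700 in monolayers. Replicates were nearly equal and the mean was 1.98-fold higher in spheroids (0.96 ± 0.19, limma adjusted p = 0.00164). The mevalonate kinase MVK had signals of 1065 and 758 in spheroids and 590 and 633 in monolayers, 0.53 ± 0.22, and was just short of the threshold (adjusted p = 0.0743); without the second spheroid culture it passed, at 0.77 (adjusted p = 0.0327), and without the first it was 0.30 (adjusted p = 0.406). PMVK, the next kinase, had overlapping groups, with 886 and 895 in spheroids and 1017 and 838 in monolayers, and a difference of -0.051 ± 0.20. IDI1, the isomerase that makes dimethylallyl diphosphate, had signals of 5565 and 6599 in spheroids, against 2866 and 3544 in monolayers, 0.92 ± 0.16 (adjusted p = 6.84e-04). FDPS, which joins these units into farnesyl diphosphate, was on the other side, with 4690 and 4636 in spheroids and 5252 and 5483 in monolayers, and was not called (-0.20 ± 0.13, adjusted p = 0.255).

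After farnesyl diphosphate the pathway is committed to sterols. SQLE, the squalene epoxidase and a control point of the pathway, had signals of 3078 and 3720 in spheroids, against 2063 and 2800 in monolayers. Its increase was narrow (0.49 ± 0.18, limma adjusted p = 0.0473) and was not called without the second spheroid culture (0.35, adjusted p = 0.240) or without the first monolayer culture (0.27, adjusted p = 0.358). LSS, which closes the rings to give lanosterol, had signals of 1233 and 1037 in spheroids and 901 and 751 in monolayers, 0.44 ± 0.20, with no overlap but above the threshold (adjusted p = 0.0959). The p of both genes lay close to the threshold, on opposite sides of it.

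Of the enzymes that trim lanosterol, MSMO1 stood out. This oxidase starts the removal of the methyl pair next to the hydroxyl group of the sterol and had signals of 11795 and 12775 in spheroids, against 3909 and 4094 in monolayers. The mean was 3.07-fold higher, a difference of 1.61 ± 0.13 (limma, adjusted p = 2.52e-06). NSDHL and HSD17B7, the dehydrogenase and the reductase that complete the same demethylation, did not pass. NSDHL had 673 and 699 in spheroids and 698 and 820 in monolayers (-0.14 ± 0.21, interval -0.58 to 0.31), and HSD17B7 had 1801 and 1748 in spheroids and 1274 and 1642 in monolayers (0.29 ± 0.18, interval -0.10 to 0.68). The demethylation steps therefore gave 1 call among 3 tested enzymes, and the differences between these enzymes were not tested.

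The reductase TM7SF2 had signals of 797 and 636 in spheroids, against 278 and 154 in monolayers, a difference of 1.63 ± 0.29 (limma, adjusted p = 8.10e-04) that rests on dim monolayer values. EBP, the isomerase of the sterol ring, fell in spheroids, with 1724 and 1791 in spheroids against 2742 and 2439 in monolayers (-0.55 ± 0.16, adjusted p = 0.0167). It was the 1 sterol enzyme called lower, and it was not called without the first spheroid culture (-0.52, adjusted p = 0.0610) or without the first monolayer culture (-0.47, adjusted p = 0.128). SC5D, the desaturase that follows EBP, had signals of 2447 and 3698 in spheroids, against 2009 and 1950 in monolayers (0.60 ± 0.19, adjusted p = 0.0273). The spheroid cultures were far apart for SC5D, and without the second of them the difference was 0.30 (adjusted p = 0.255). DHCR7, the reductase of a final step to cholesterol, had signals of 2018 and 2267 in spheroids, against 1173 and 1081 in monolayers (0.91 ± 0.17, adjusted p = 0.00137).

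Over the sterol branch, 7 of 14 tested enzymes rose (50%, against 19.0% of all genes) and 1 fell (7.14%, against 20.6%). The other 6 were not called, and the differences ran from -0.55 to 1.63. TM7SF2, among the 7, passed the signal filter only through its spheroid signals, which favours such an increase. The spheroid arrays were fully above the monolayer arrays in 10 of the 14, against 33.4% of all genes. They were fully below in 2 of the 14, against 36.6% of all genes. The median was 0.51 with the deposited scaling and turned to -0.37 with scaling to the Bacillus controls, when the median of all genes was -0.91. IDI1 and HSD17B7 were read by probe sets that may also match related sequences, such as the HSD17B7 pseudogene.

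**Figure D2:**
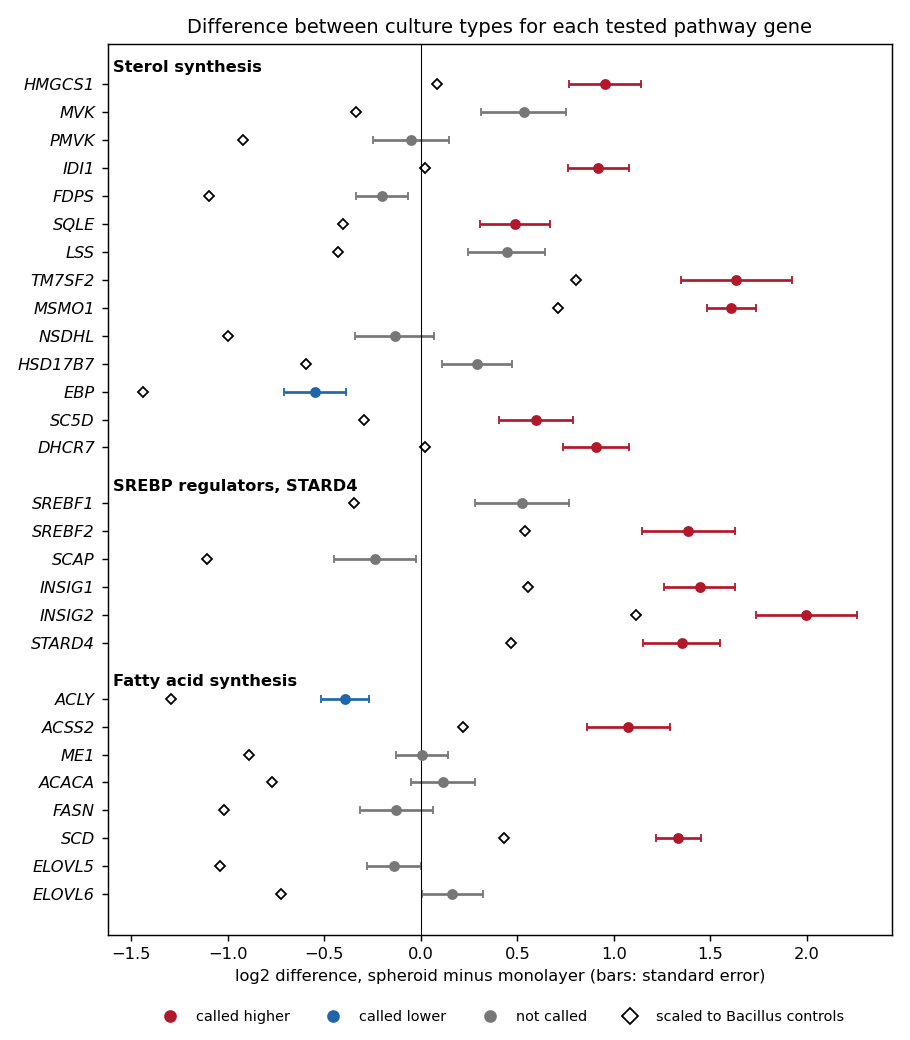
Horizontal axis: log2 difference, spheroid minus monolayer, of each tested gene (filled points, with bars of 1 standard error from limma, n = 2 arrays per group) relative to the array average, with colours for the call. Open diamonds give the same difference with arrays scaled to the Bacillus controls, which lie lower for all 28 genes. INSIG2 has the highest estimate at 2.00 and EBP the lowest at -0.55.

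In the fatty acid branch 2 of 8 tested enzymes rose, 1 fell and 5 were not called. These shares, 25% higher and 12.5% lower, are near the 19.0% and 20.6% of all genes, so the count sets the class apart in neither direction. SCD, the desaturase that makes oleate from stearate, had signals of 17523 and 18180 in spheroids, against 7037 and 7088 in monolayers. Replicates were close together and the mean was 2.53-fold higher in spheroids (1.33 ± 0.12, limma adjusted p = 5.08e-06). ACSS2, which makes acetyl-CoA from acetate, had signals of 868 and 812 in spheroids, against 385 and 379 in monolayers, a 2.20-fold higher mean (1.07 ± 0.21, adjusted p = 0.00189). ACLY makes acetyl-CoA from citrate and fell in spheroids, with 7506 and 7904 in spheroids against 10499 and 9774 in monolayers (-0.39 ± 0.12, adjusted p = 0.0232). The sources of acetyl-CoA thus moved in opposite directions, ACSS2 up and ACLY down. The ACLY call was lost without either spheroid culture (adjusted p = 0.120 without the first and 0.0634 without the second) and without the first monolayer culture (adjusted p = 0.109).

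Among the genes of interest, the enzymes that build and lengthen the acyl chain had differences near 0. HACD2, a dehydratase from the list of other fatty acid genes given below, was called lower (-0.67 ± 0.15). ACACA, the acetyl-CoA carboxylase that commits carbon to fatty acids, had signals of 1779 and 1891 in spheroids and 1753 and 1634 in monolayers, 0.11 ± 0.17 with an interval of -0.24 to 0.47. FASN, the fatty acid synthase, had signals of 2537 and 2047 in spheroids and 2912 and 2131 in monolayers, -0.13 ± 0.19 with an interval of -0.53 to 0.28. The replicates of FASN differed by more than its groups did. ME1, a source of NADPH, had signals of 4560 and 4867 in spheroids and 4709 and 4668 in monolayers, with a difference of 0.0069 ± 0.14 (interval -0.29 to 0.30). The elongase ELOVL5 had signals of 5005 and 5574 in spheroids and 5462 and 6203 in monolayers (-0.14 ± 0.14, interval -0.44 to 0.16). ELOVL6, the elongase that acts on palmitate, had 2200 and 2148 in spheroids and 1939 and 1938 in monolayers, not overlapping but not called (0.16 ± 0.16, adjusted p = 0.443). All 5 intervals include 0 and stay below the differences of SCD and ACSS2, and a change smaller than these intervals was not detectable with 2 arrays per group.

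The median was 0.51 for the sterol enzymes and 0.060 for the fatty acid enzymes, against -0.030 for all genes tested. With scaling to the Bacillus controls both medians were negative, at -0.37 and -0.83, with -0.91 for all genes. Seen by array, the median deviation of the 14 sterol enzymes from their 4-array means was 0.25 on each spheroid array, against -0.32 and -0.26 on the monolayer arrays. For the 6 regulators it was 0.49 and 0.67 in spheroids, against -0.62 and -0.58 in monolayers. For the 8 fatty acid enzymes it was 0.052 and 0.057 in spheroids, against -0.014 and -0.094 in monolayers, and no array of either group departed from the pattern of its class. The difference between the branches was not tested, and with 4 arrays an exact permutation of cultures cannot give a two-sided p below 0.333.

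**Figure D3:**
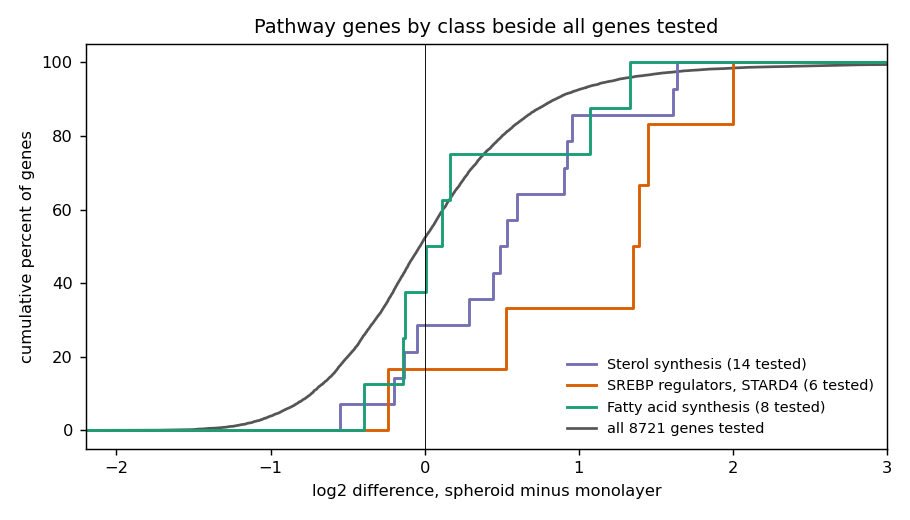
Horizontal axis: log2 difference, spheroid minus monolayer, cut off at 3. Vertical axis: the cumulative percent of genes with at most that difference, for each of the 3 classes and for all 8721 genes tested. The medians are 1.37 for regulators, 0.51 for sterol enzymes and 0.060 for fatty acid enzymes, against -0.030 for all genes; with scaling to the Bacillus controls they are 0.50, -0.37 and -0.83, against -0.91.

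Most genes with several probe sets gave the same direction at each of them. The 30 genes had 68 single-symbol probe sets, of which 46 passed the 300-unit filter, and 13 genes had more than 1 that passed. In a fit over all 14162 such probe sets, 0 of the 13 genes had called probe sets of opposite direction, and 12 had all estimates on 1 side of 0, ME1 being the exception at 0.0069 and -0.21. For HMGCS1, IDI1, EBP, DHCR7, SREBF2, INSIG1 and SCD every tested probe set was called in the same direction. INSIG1 gave 1.45, 1.84 and 2.08 from its 3 probe sets, and SCD gave 1.33, 1.52, 1.70 and 1.57 from 4. SREBF2 gave 1.39 and 1.38, and EBP gave -0.55 and -0.56. SQLE was less even: of 0.49, 0.70 and 0.44, the second alone was called in that fit. ACLY was called at -0.39 but not at -0.30 or -0.12.

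**Figure D4:**
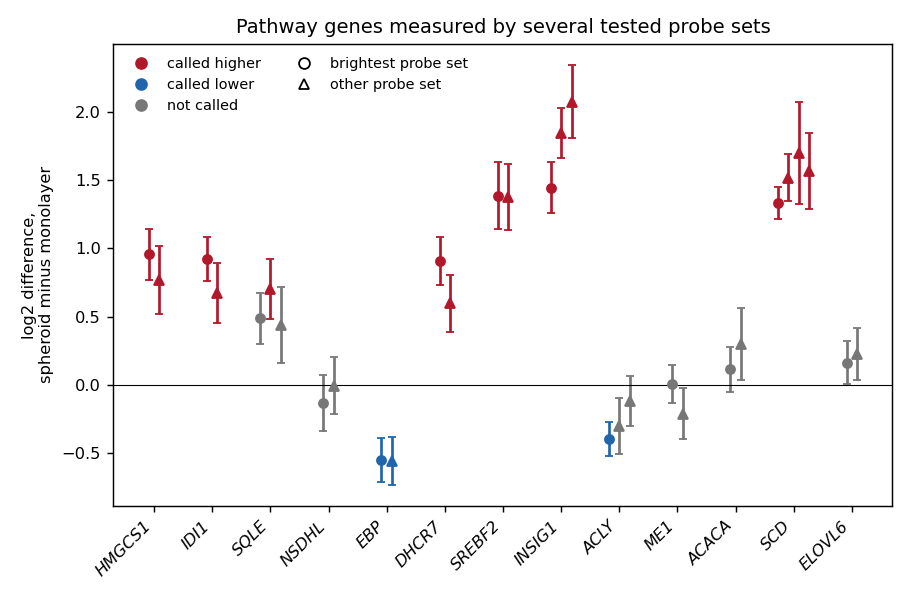
Vertical axis: log2 difference, spheroid minus monolayer, of every tested probe set of the 13 genes with several, relative to the array average, with bars of 1 standard error. Circles are the brightest probe set of a gene and triangles the others. The 4 SCD and 3 INSIG1 probe sets all lie above 1, both EBP probe sets lie near -0.55, and the ME1 pair falls on either side of 0.

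Genes around the pathway were read from the same fit. Of 16 other sterol genes, 12 were tested, 4 of them higher (33.3%, against 19.0% of all genes) and 1 lower (8.33%, against 20.6%), with a median of 0.34. NPC1, which exports cholesterol from lysosomes, was higher by 0.76 ± 0.21 (limma, adjusted p = 0.0131), the sterol-binding protein OSBP by 0.69 ± 0.17 (adjusted p = 0.00667) and CYB5B, a cytochrome b5, by 0.51 ± 0.15. The fourth was GGPS1 (0.48 ± 0.17), which makes geranylgeranyl diphosphate and so leads away from sterols. LBR, a nuclear envelope protein with the same sterol reductase activity as TM7SF2, was lower, with 4190 and 6120 in spheroids against 8250 and 7594 in monolayers (-0.64 ± 0.17, adjusted p = 0.00986). The pair of sterol reductases therefore had opposite calls, TM7SF2 higher and LBR lower in spheroids.

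Of 14 genes that process SREBPs or degrade sterol-regulated proteins, 11 were tested, 1 of them higher (9.09%, against 19.0% of all genes) and 3 lower (27.3%, against 20.6%), with a median of -0.14. Counts this small are not set apart from the background. MARCHF6, a ubiquitin ligase that targets SQLE for degradation, was higher by 0.47 ± 0.16 (limma, adjusted p = 0.0345). PAQR3, which tethers SCAP at the Golgi, was lower (-0.58 ± 0.16, adjusted p = 0.0111), as were AUP1 (-0.50 ± 0.15) and ERLIN1 (-0.47 ± 0.15), which take part in degradation at the endoplasmic reticulum. The proteases MBTPS1 and MBTPS2, which cut the SREBP precursors, were not called, at 0.26 ± 0.20 and -0.15 ± 0.16.

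Among 24 other genes of fatty acid synthesis and activation, 16 were tested, 3 higher (18.8%, against 19.0% of all genes) and 2 lower (12.5%, against 20.6%), with a median of 0.24, so these counts are near or below the background. ACSL5, which activates long-chain fatty acids, had signals of 7036 and 9090 in spheroids, against 1878 and 2928 in monolayers (1.76 ± 0.20, limma adjusted p = 4.46e-05). LPIN1, a phosphatidate phosphatase, was higher by 0.77 ± 0.24 and FADS3, a relative of the desaturase FADS2, by 0.68 ± 0.21, whereas the dehydratase HACD2 (-0.67 ± 0.15) and the acyltransferase GPAM (-0.57 ± 0.21) were lower. Of 10 genes of the liver X receptor, the sensor of oxysterols, and its targets, 5 were tested. Of these, 2 were higher (40%, against 19.0% of all genes) and 0 lower (against 20.6%), with a median of 0.051. The 2 were MYLIP, a ligase that degrades the low-density lipoprotein receptor (1.42 ± 0.22, limma adjusted p = 3.43e-04), and the receptor partner RXRB (0.58 ± 0.22, adjusted p = 0.0498). Of 7 subunits of the AMP-activated kinase, which phosphorylates ACACA, 6 were tested and PRKAA2 alone was called, as higher (0.89 ± 0.26, adjusted p = 0.0173), from signals of 465 and 422 in spheroids and 195 and 257 in monolayers. PRKAA2 also passed the 300-unit filter through its spheroid signals alone, and 1 of 6 is near the 19.0% of all genes called higher.

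Quality measures and markers of other cells were compared between the groups. Between 27.5% and 30.04% of probe sets were above 300 units on each array. The correlation across genes, which are not independent replicates, was 0.979 between the spheroid arrays and 0.984 between the monolayer arrays, and 0.889 to 0.902 between a spheroid and a monolayer array. The 3' over 5' signal of ACTB was 2.82 and 3.003 in spheroids and 2.64 and 2.34 in monolayers, and that of GAPDH lay the other way, at 0.931 and 0.921 in spheroids and 1.07 and 1.02 in monolayers. The 28S ribosomal control differed by culture number rather than by group, with 10356 and 3828 in spheroids and 11664 and 4090 in monolayers. All 6 epithelial markers were above 300 units in the mean, with summed signals of 93323 to 97709 in spheroids and 80708 to 88549 in monolayers. Single markers differed in direction. CDH1, KRT19 and CLDN4 were higher in spheroids, CLDN4 with 2773 and 2007 against 312 and 346 in monolayers. KRT8 was lower, with 5962 and 4003 in spheroids against 7851 and 6056 in monolayers, and EPCAM and KRT18 overlapped. Of 4 mesenchymal markers, VIM and COL1A1 were above 300 units in the mean. The sums over all 4 were 2973 to 3084 in spheroids and 1032 to 1171 in monolayers. COL1A2 reached at most 53.4 units on any array and DCN 78.2. None of the 10 leukocyte, endothelial, adipocyte and hepatocyte markers averaged above 300 units. The part of these control signals and of the mesenchymal signal in the values above was not tested.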

How the data were processed

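Total RNA of 2 spheroid and 2 monolayer cultures of HCT116 cells was labelled with biotin and hybridized, 1 culture per array, to 1-colour oligonucleotide arrays. The authors normalized the arrays with MAS5 (its version is not stated), and the deposited values are signal intensity per probe set on a linear scale, with a common trimmed mean of 500.1. A change in total mRNA per cell is lost through this scaling.

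Of 54675 probe sets, 62 were controls, 41091 carried 1 symbol in the platform annotation, 1801 carried several and 11721 were not listed. Probe sets with 1 symbol and a mean above 300 units were kept (14162), and each gene was represented by its brightest probe set, giving 8721 genes. Promoter windows came from RefSeq (GRCh38.p14).

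Differences were computed on log2(signal + 32), a constant that shrinks the change of dim genes. limma (3.58.1, in R 4.3.3) fitted the 4 arrays by lmFit, and eBayes with an intensity trend gave two-sided p-values, adjusted by Benjamini-Hochberg across the 8721 genes. There were 2 residual degrees of freedom, with a prior of 10.5, and a typical standard error (the median) of 0.19. Fold values are ratios of mean signals with no constant added. The number of arrays limits the precision. The fit was also run on simulated data with independent noise between arrays. Same-numbered cultures deviated together in the real data, so that run does not show how the p-values behave here.

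The pathway members and the other lists were chosen with earlier results of these data known. Every member is named, with the signal on every array; of each other list, up to 4 called genes with the largest difference are named. GGPS1 and GPAM, both called, and MBTPS1, MBTPS2 and SCD5, not called, fall outside this rule and were added after their values were seen. Alternatives changed the filter, constant, scaling, probe set rule, intensity trend, replicate block and the arrays included, or took the log2 ratio of group means. A comparison of paired proteins was not made here.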

Additional observations from a re-analysis of the deposited data

How the results depend on the processing

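The increase of INSIG2 kept its call under every alternative that has a test. Those of HMGCS1, INSIG1, MSMO1, SREBF2 and STARD4 lost it only with scaling to the Bacillus controls. ACSS2, DHCR7, IDI1, SCD and TM7SF2 also lost it only there, but had no probe set left under the rule without probe sets ending in _x_at or _s_at, which dropped 10 of the 28 tested genes.

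Scaling to the Bacillus controls kept 3 of 15 calls (INSIG2 higher, EBP and ACLY lower), lost 12 and added 3 lower ones. It gave 157 genes higher and 3656 lower over all genes, 0 higher and 2 lower among sterol enzymes (median -0.37), 1 higher and 1 lower among regulators (median 0.50), and 0 higher and 2 lower among fatty acid enzymes (median -0.83). It turned the sign of ACACA (-0.77), ELOVL6 (-0.73), HSD17B7 (-0.60), LSS (-0.43), ME1 (-0.89), MVK (-0.34), SC5D (-0.30), SQLE (-0.41) and SREBF1 (-0.35). The scaling lowered every difference of the tested genes of interest, since the controls were 1.87-fold brighter on the spheroid arrays. What this brightness reflects was not tested.

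Without _x_at and _s_at probe sets, 1114 of all genes were called lower, the sterol enzymes had 2 called higher and a median of 0.47, and the fatty acid enzymes had 0 called higher, 0 lower and a median of -0.013, with fewer genes tested. ME1 was then -0.21. The fatty acid enzymes had 0 called lower with the mean of probe sets, with no intensity trend, with no signal filter and with quantile normalization. Their median was 0.0069 with no signal filter and 0.11 with quantile normalization, and the cause was not tested. ME1 was -0.10 with the mean of probe sets and -0.015 with scaling to the median of tested genes. SQLE, SC5D and ACLY lost their calls with no signal filter and with no intensity trend, ACLY with quantile normalization and the mean of probe sets, and SQLE with median scaling.

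When each array was left out in turn, the sterol median ranged from 0.46 to 0.58, with 0 to 1 enzymes called lower. The regulator median ranged from 1.15 to 1.44. The fatty acid median ranged from 0.032 to 0.13, with 0 to 1 called lower. FASN ranged from -0.35 to 0.096, ME1 from -0.040 to 0.054 and PMVK from -0.19 to 0.084. Over all genes, 1208 to 1502 were called higher and 1362 to 1484 lower. A left-out array leaves a group with 1 culture, which is assumed to vary like the other group.

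No source says that a replicate number marks a shared day or batch, so the numbers were not used as pairs. Same-numbered cultures did deviate together, with a correlation of 0.32 across genes over 2 pairs, and the 28S ribosomal control was brighter on both arrays numbered 1 (10356 in spheroids and 11664 in monolayers) than on those numbered 2 (3828 and 4090). With the replicate block all 15 calls were kept and MVK, LSS and SREBF1 were added as higher (2114 genes higher and 2301 lower in all).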

Other observations

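Steps that use molecular oxygen were looked at as a group after the values were seen, so the grouping is a description and was not tested. The members whose enzymes consume oxygen are SQLE, CYP51A1, MSMO1, SC5D, SCD, FADS1 and FADS2. SQLE, MSMO1, SC5D and SCD were called higher in spheroids, among 13 of 28 tested members and 19.0% of all genes called so. FADS2 was too dim to be tested and not higher, with signals of 165 and 118 in spheroids and 155 and 162 in monolayers, and CYP51A1 and FADS1 were not analysed here. Outside the members, the desaturase SCD5 was lower but not called, with 1154 and 1078 in spheroids against 1558 and 1500 in monolayers. Its difference was -0.44 ± 0.18 (limma, adjusted p = 0.0615). FADS3, also outside the members, was called higher at 0.68. The calls of SQLE and SC5D were lost when single cultures were left out. With scaling to the Bacillus controls SQLE and SC5D were negative, at -0.41 and -0.30, and MSMO1 and SCD were positive but not called, at 0.71 and 0.43.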
